A study of Mus musculus with 8 samples.

Results

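The constitutive proteasome genes are the mouse genes for the subunits of the standard proteasome, with the assembly factors and activators named after them. They were taken as every row of the gene table whose symbol starts with Psma, Psmb, Psmc, Psmd or Psmf and a number, together with Psme2, Psme3 and Psme4. The interferon-induced catalytic subunits Psmb8, Psmb9 and Psmb10 were left out. This gave 40 of 17644 rows. Of these, 31 encode subunits of the core particle or of the regulatory cap, 3 encode assembly factors, 3 encode other activators and Psmf1 encodes a regulator. The other rows are Psma8, the testis form of a ring subunit, and Psmc3ip, which matches by its name and encodes a meiotic recombination factor, not a subunit. Psme2, unlike the rest, is known as a gene that interferon induces, so the name constitutive applies to it less well.

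Expression was measured by cap analysis of gene expression (CAGE), a method that reads short tags at the capped start of each RNA. In 11-week-old male C57BL/6NCrSlc mice, cortical tissue was aspirated from the motor cortex to leave a cavity 1 mm deep, and brain tissue within 1.0 mm of its margin was collected. There were 4 samples taken 1 week after the lesion (1-week libraries) and 4 taken immediately after it (no-delay libraries). Mice of both groups were of one age, sex and strain at surgery and carried the same lesion, so no unlesioned brain is compared here. The series title concerns grafts of neurons made from human stem cells, and the comparison describes the host tissue around a cavity 1 week old and a fresh one. Values are in CPM, tags of a gene scaled to a common library total, with 1 tag for each capped end, so they do not need division by transcript length. Libraries are named by the 6-base tag in their column. The tag acagtg is written as A, the tag atcacg as B, the tag cgatgt as C and the tag tgacca as D, and values are given in the order A to D. The same 4 tags occur in both groups without pairing their samples, but a further 3-base tag is GCT in every 1-week column and CAC in every no-delay column, so an effect of it cannot be told apart from that of time.

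The proteasome is the protease that degrades proteins marked with ubiquitin. Its core particle is a stack of rings, with alpha subunits outside that form the gate and beta subunits inside. Among the beta subunits, Psmb5, Psmb6 and Psmb7 carry the cutting sites. The cap binds ubiquitylated proteins, removes the ubiquitin and unfolds them. Its base holds a ring of ATPases, and its lid holds the deubiquitinase Psmd14. Other activators can replace the cap: Psme1 with Psme2 in the cytosol, and Psme3 or Psme4 mainly in the nucleus. In inflamed tissue, interferon induces Psmb8, Psmb9 and Psmb10, which take the places of Psmb5, Psmb6 and Psmb7 in new particles and form the immunoproteasome.

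Reference promoters were searched for short motifs. Those of the activators that changed and of Psmb5 and Psmb6, the catalytic subunits with a reference promoter, are shown. Of the 40 genes, 33 matched an entry in the RefSeq promoter table of build GRCm38.p6. The catalytic subunit Psmb7 had no entry, so its promoter was not searched. The submitters' notes name build mm9, so these positions are not those of the build used for the data. Each sequence is the 250 bases before the annotated start on the strand of the gene, 5′ to 3′, and capitals mark the motif matches. Psme3 (chr11:101315963-101316212, plus strand) has 1 CCAAT box, here in reverse as ATTGG. Psme2 (chr14:55591102-55591351, minus strand) has 1 GC box, here in reverse. Psmb6 (chr11:70525107-70525356, plus strand) has an antioxidant response element core at the end of the stretch and a reversed GC box near its start. Psmb5 (chr14:54617996-54618245, minus strand) has an antioxidant response element core.
Psme3: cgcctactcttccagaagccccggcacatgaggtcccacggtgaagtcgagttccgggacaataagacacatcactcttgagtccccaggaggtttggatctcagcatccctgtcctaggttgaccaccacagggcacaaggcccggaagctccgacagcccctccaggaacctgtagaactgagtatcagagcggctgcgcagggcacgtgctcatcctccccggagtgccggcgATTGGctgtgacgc
Psme2: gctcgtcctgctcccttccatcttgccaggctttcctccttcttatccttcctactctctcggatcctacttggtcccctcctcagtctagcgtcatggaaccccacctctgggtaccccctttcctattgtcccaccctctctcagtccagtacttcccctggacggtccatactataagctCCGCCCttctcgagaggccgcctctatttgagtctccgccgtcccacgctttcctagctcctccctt
Psmb6: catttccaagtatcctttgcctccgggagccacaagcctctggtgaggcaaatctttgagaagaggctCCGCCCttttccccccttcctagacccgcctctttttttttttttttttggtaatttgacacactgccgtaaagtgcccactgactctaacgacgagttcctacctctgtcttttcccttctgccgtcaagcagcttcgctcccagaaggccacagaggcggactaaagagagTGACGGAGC
Psmb5: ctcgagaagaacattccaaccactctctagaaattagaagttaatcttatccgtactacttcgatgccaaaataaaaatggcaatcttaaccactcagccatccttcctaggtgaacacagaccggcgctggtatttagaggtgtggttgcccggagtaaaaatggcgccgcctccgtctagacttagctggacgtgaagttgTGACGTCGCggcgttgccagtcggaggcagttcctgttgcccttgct

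Each motif was looked for on both strands. The antioxidant response element core (TGACNNNGC), which binds Nfe2l1 and Nfe2l2 with small Maf proteins, was in 5 of the 33 promoters (15.2%), against 10.1% of all 27025 promoters in the table. These were Psmb5, Psmb6, Psmc6, Psmd12 and Psmd9. The GC box, GGGCGG, was in 19 (57.6%) of the 33, against 32.9% of all. The CCAAT box was in 13 (39.4%) of the 33, against 34.5% of all. The core of the interferon-stimulated response element was in 3 (9.09%: Psmb3, Psmd4 and Psmd9), against 3.04% of all. The interferon-gamma activated site, TTCNNNGAA, was in 0 of the 33, against 7.18% of all. Matches of different motifs were allowed to overlap, and a match describes letters only.

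The 8 libraries held 8278855 to 13998941 reads, and the lowest and highest were the 1-week libraries A and C. At this depth the limit that a count of 0 allows (3 reads) was 0.214 to 0.362 CPM, and it covers counting error only. Markers of cell types differed between the groups. All 6 microglia markers were called higher and summed to 817 to 1199 CPM in 1-week libraries, against 206 to 229 CPM in no-delay libraries. Both tested macrophage markers of 3 listed were higher (105 to 298 CPM, against 4.61 to 7.82 CPM), with Ccr2 under 1 CPM in both groups. All 5 astrocyte markers were higher (1666 to 2362 CPM, against 441 to 502 CPM). Of 5 neuron markers in the table, 2 were lower and 3 were not called (4686 to 5030 CPM, against 5266 to 6000 CPM). Endothelial markers were higher in 3 of 3 (102 to 133 CPM, against 48.4 to 64.1 CPM), oligodendrocyte markers in 3 of 4 (1907 to 3346 CPM, against 1198 to 2741 CPM) and red cell markers in 0 of 3 (283 to 4332 CPM, against 528 to 1282 CPM). Whether these shifts bear on the values that follow was not tested, and in such bulk tissue fewer cells of a type and less RNA per cell cannot be told apart.

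Most constitutive proteasome genes differed little between the cavity 1 week old and the fresh one. Differences were tested with limma on log2(CPM + 1) over 14718 genes, and a gene was called at an adjusted p (Benjamini-Hochberg, 2-sided) under 0.05. Of the 40 genes 38 were tested. Of these 38, 6 were higher after 1 week (Psma1, Psma3, Psmb2, Psmb7, Psmd13 and Psme2), 1 was lower (Psme3) and 31 were not called. That is 15.8% called higher and 2.63% called lower, against 23.4% and 13.4% of all genes tested, and 18.4% called either way, against 36.8% of all genes. The 1-week and no-delay libraries did not overlap for 8 of 38 genes (21.1%), against 34.7% of all genes tested. Of the 8, 6 were higher and 2 lower, against 22.7% and 12% of all genes. A log2 difference over 0.5 in either direction was seen for 2 of 38 (Psme2 and Psme3), against 19.5% of all genes. At an unadjusted p under 0.05 there were 10 of the 38, against 45.7% of all genes.

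**Figure D1:**
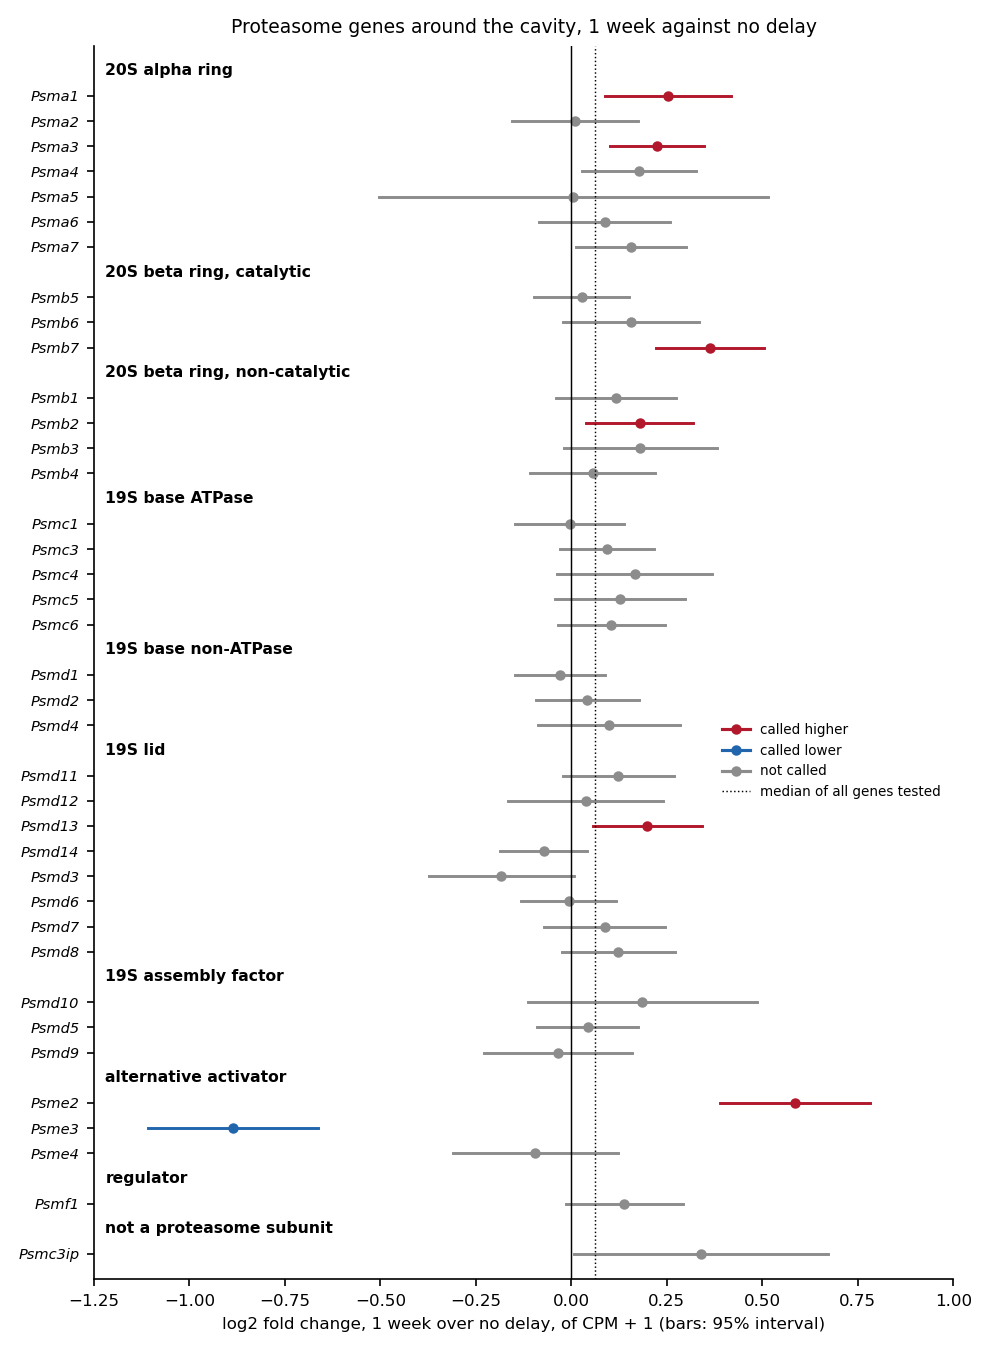
Log2 fold change of CPM + 1, 1 week over no delay, for the 38 tested proteasome genes by role, with 95% intervals from limma (4 libraries each). Psme3 at -0.89 and Psme2 at 0.59 lie outside the range of the core particle and cap genes, which run from -0.18 to 0.36, and the dotted line marks the median of all genes tested, 0.06.

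The median log2 fold change was 0.10 over the 38 genes and 0.06 over all 14718, where the interquartile range was -0.13 to 0.28. It was 0.16 over the 14 core particle genes and 0.09 over the 16 tested cap genes. All 14 core particle genes had a positive estimate, and 11 of 16 cap genes had one, against 58.3% of all genes tested. These signs depend on scaling: with TMM or median-of-ratios scaling 10 of 14 and 9 of 16 were positive, the median of all genes was 0.01 or -0.00, and the median of the 38 was 0.04 or 0.03. The share of higher calls among all calls was 63.6% with CPM as deposited, 53.2% with TMM, 51.4% with median-of-ratios and 43.4% with quantile normalization. Quantile normalization moved the median of all genes to -0.04 and left the 38 genes 0.16 above it, against 0.04 with the deposited scale.

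Summed over the 14 core particle genes, the level was 1859, 2003, 1964 and 1767 CPM in 1-week libraries, against 1723, 1691, 1799 and 1657 CPM in no-delay libraries. The 1-week mean of 1898 ± 106 CPM (SD, n = 4) was 10.5% above the no-delay mean of 1718 ± 60.7 CPM, and the lowest 1-week library lay inside the no-delay range. The 17 cap genes summed to 2480, 2566, 2599 and 2413 CPM in 1-week libraries, against 2564, 2382, 2387 and 2343 CPM in no-delay libraries. Their means were 2515 ± 84.3 and 2419 ± 98.6 CPM (SD, n = 4 each), 3.96% apart, and the groups overlapped. For the 25 core particle and cap genes not called, the 95% intervals of the log2 fold change reached at most from -0.50 to 0.52, or 0.705- to 1.43-fold, both set by Psma5. For the 15 uncalled cap genes they reached from -0.37 to 0.37, or 0.772- to 1.29-fold.

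Of the 3 catalytic subunits, 1 was called higher and the others were not called. Psmb7, which carries the trypsin-like activity, had 134, 128, 133 and 121 CPM in 1-week libraries, against 102, 92.5, 106 and 98.6 CPM in no-delay libraries. Every 1-week library was above every no-delay one. The mean of 129 ± 6.02 CPM after 1 week was 28.8% above the no-delay mean of 99.8 ± 5.82 CPM (SD, n = 4 each), with a log2 fold change of 0.36 ± 0.06 (SE) and an adjusted p of 8.76e-04 by limma. Psmb6, the caspase-like subunit, had 151, 186, 176 and 158 CPM in 1-week libraries, against 168, 138, 151 and 143 CPM in no-delay libraries. The groups overlapped, and the difference of 0.16 ± 0.08 (log2, SE) was not called, with an adjusted p of 0.157 by limma and an interval from -0.02 to 0.33.

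Psmb5, the chymotrypsin-like subunit and the target of proteasome inhibitor drugs, had 193, 213, 215 and 203 CPM in 1-week libraries, against 203, 202, 200 and 203 CPM in no-delay libraries. The no-delay values were within a narrow range that the 1-week values straddled. Its log2 fold change was 0.03 ± 0.06 (SE), with an interval from -0.10 to 0.15 and an adjusted p of 0.738 by limma.

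Among the non-catalytic beta subunits, 1 of 4 was called. Psmb2 had 167, 182, 183 and 161 CPM in 1-week libraries, against 154, 146, 160 and 151 CPM in no-delay libraries. The groups did not overlap, but the lowest 1-week value was next to the highest no-delay one. The log2 fold change was 0.18 ± 0.06 (SE) with an adjusted p of 0.0458 by limma, and the call was lost under 11 of 20 alternatives. These include TMM scaling (adjusted p of 0.152) and leaving out any one of 6 libraries (0.0554 to 0.138): no-delay A, B or D, 1-week A, B or C. Psmb1, Psmb3 and Psmb4 had log2 fold changes of 0.12, 0.18 and 0.06 and were not called.

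Of the 7 alpha subunits, 2 were called higher. Psma3 had 261, 265, 248 and 240 CPM in 1-week libraries, against 219, 213, 219 and 216 CPM in no-delay libraries. The groups were apart in all libraries, and the no-delay libraries were close together. The mean of 254 ± 11.3 CPM was 1.17 times the no-delay mean of 217 ± 3.06 CPM (SD, n = 4 each). The log2 fold change was 0.22 ± 0.06 (SE), with an adjusted p of 0.0082 by limma, and the call was lost under 2 alternatives, median-of-ratios scaling (0.051) and edgeR on recovered reads (0.0533).

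Psma1 had 151, 151, 149 and 128 CPM in 1-week libraries, against 134, 121, 118 and 112 CPM in no-delay libraries. Here the groups overlapped, since the 1-week library D was below the no-delay library A. The log2 fold change was 0.25 ± 0.08 (SE), with an adjusted p of 0.0197 by limma. Leaving out any one of 5 libraries (no-delay C or D, 1-week A, B or C) moved that p to 0.0505 to 0.0584. The call was also lost with median-of-ratios scaling (0.0585) and with DESeq2 (0.0525).

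The other alpha subunits were not called. Psma4 and Psma7 came closest, with log2 fold changes of 0.18 and 0.16 and adjusted p-values of 0.0631 and 0.086 by limma, while Psma2 and Psma6 had 0.01 and 0.09. Psma4 was called without the no-delay library C (adjusted p of 0.0338) and without the 1-week library D (0.044). Psma5 varied most, with 75.1, 120, 120 and 78.9 CPM in 1-week libraries, against 56.2, 111, 137 and 98.98 CPM in no-delay libraries. Its SE of 0.23 on the log2 scale was the largest of all 38 genes, so a difference inside its interval from -0.50 to 0.52 could not be resolved.

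**Figure D2:**
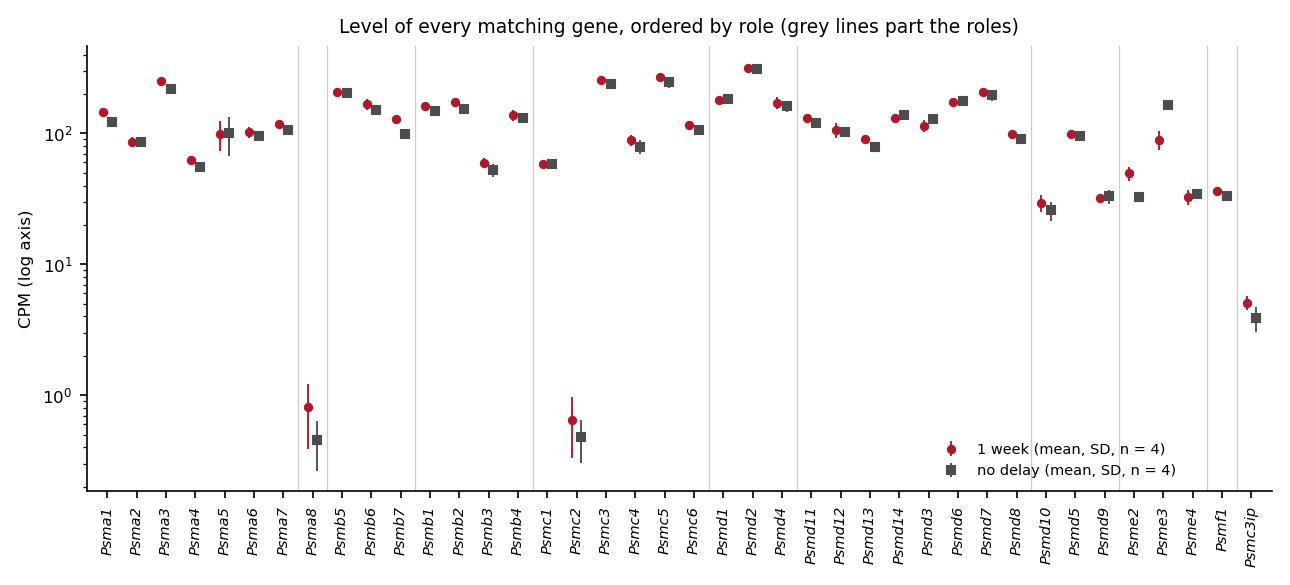
Mean level in CPM (log axis) of all 40 genes by role, 1-week libraries as red circles and no-delay libraries as grey squares, with bars for SD (n = 4 each). Core particle and cap genes other than Psmc2 lie between 52.6 and 318 CPM with the groups side by side in most, while Psmc2 and Psma8 lie below 1 CPM.

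None of the 8 tested genes of the cap base was called. Psmc5, the ATPase gene with the highest level, had 268, 277, 285 and 248 CPM in 1-week libraries, against 280, 245, 245 and 220 CPM in no-delay libraries. The groups overlapped, and the log2 fold change was 0.13 ± 0.08 (SE) with an adjusted p of 0.224 by limma. Over the 5 tested ATPases (Psmc1, Psmc3, Psmc4, Psmc5 and Psmc6) it ran from -0.00 to 0.17. Psmc4 reached an adjusted p of 0.0481 when no-delay library A was left out.

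The remaining ATPase, Psmc2, was below the filter on low values, and without that filter it was not called (log2 fold change of 0.15, adjusted p of 0.477 by limma). It had 1.09, 0.37, 0.64 and 0.49 CPM in 1-week libraries, against 0.61, 0.27, 0.40 and 0.63 CPM in no-delay libraries, from 29 and 19 reads in all. The other ATPases had means of 58.8 CPM or more in each group, although the ring holds 1 of each. Why this row is so low was not tested.

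Of the scaffold subunits of the base, Psmd2 had the highest level of all 40 genes. It had 313, 329, 310 and 322 CPM in 1-week libraries, against 338, 300, 295 and 306 CPM in no-delay libraries. The groups overlapped, with a log2 fold change of 0.04 ± 0.06 (SE) and an adjusted p of 0.628 by limma. Psmd1, its partner scaffold, and Psmd4, a receptor for ubiquitin, had log2 fold changes of -0.03 and 0.10 and were not called.

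Of the 8 lid genes 1 was called. Psmd13 had 93.2, 90.2, 95.2 and 84.5 CPM in 1-week libraries, against 83.0, 79.4, 80.5 and 73.0 CPM in no-delay libraries. The groups did not overlap, although the lowest 1-week value was next to the highest no-delay one. The log2 fold change was 0.20 ± 0.07 (SE) with an adjusted p of 0.0317 by limma. The call was lost under 11 of 20 alternatives, among them TMM scaling (0.0888) and leaving out 1 of 6 libraries (0.0508 to 0.0986): no-delay B, C or D, 1-week A, B or C. Its start lies 85 bases from that of Sirt3 on the other strand, and Psma7, Psmc5, Psma2 and Psmd10 also have such a neighbour, whose tags could be counted with theirs if strand was not used.

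Psmd14, the deubiquitinase of the lid, had 130, 132, 135 and 131 CPM in 1-week libraries, against 138, 140, 139 and 138 CPM in no-delay libraries. Every 1-week library was below every no-delay one, by a small amount. The log2 fold change was -0.07 ± 0.05 (SE) and was not called by limma (adjusted p of 0.307), but was called by DESeq2 (0.0417). Psmd3, a scaffold of the lid, had the lowest log2 fold change among core particle and cap genes, -0.18 ± 0.09 (SE). It was not called (adjusted p of 0.121 by limma), but was called without the 1-week library D (0.0316), where its log2 fold change was -0.25, by DESeq2 (0.0431) and with the 6-base tag as a block (0.0452). Psmd8 was called without that same library (0.0464) and Psmd11 without the no-delay library A (0.0425). The other lid genes, Psmd6, Psmd7 and Psmd12, had log2 fold changes of -0.01, 0.09 and 0.04.

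The 3 factors that help to assemble the base, Psmd5, Psmd9 and Psmd10, were not called. Psmd5, with the highest level, had 99.9, 103, 92.7 and 98.8 CPM in 1-week libraries, against 90.6, 95.3, 98.5 and 98.9 CPM in no-delay libraries. The groups overlapped, with a log2 fold change of 0.04 ± 0.06 (SE) and an adjusted p of 0.621 by limma. Psmd9 and Psmd10 had log2 fold changes of -0.04 and 0.19.

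Of the 3 activators that can replace the cap, 1 fell, 1 rose and 1 was not called, and the first 2 had the largest changes of all 38 genes. Psme3, the nuclear activator, had 94.8, 75.5, 79.0 and 108 CPM in 1-week libraries, against 169, 172, 165 and 151 CPM in no-delay libraries. All 1-week libraries were below all no-delay ones by a wide gap. The mean fell by 45.7% to 89.3 ± 15.03 CPM in 1-week libraries, against 164 ± 9.43 CPM in no-delay libraries (SD, n = 4 each). The log2 fold change was -0.89 ± 0.10 (SE) with an adjusted p of 3.02e-05 by limma, and it ranked 109 from the lowest of the 14718 genes tested. Under the 20 alternatives it ran from -0.98 to -0.81, and the call was kept under each of them.

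Psme2, the partner of Psme1 in the cytosolic activator, had 49.6, 57.5, 47.4 and 43.5 CPM in 1-week libraries, against 31.1, 33.0, 35.1 and 30.8 CPM in no-delay libraries. The groups did not overlap. The mean of 49.5 ± 5.90 CPM was 1.52 times the no-delay mean of 32.5 ± 1.99 CPM (SD, n = 4 each), with a log2 fold change of 0.59 ± 0.09 (SE) and an adjusted p of 2.95e-04 by limma. The call was kept under each of the 20 alternatives, as was that of Psmb7. A retrocopy, Psme2b-ps, has its own row. It was also called higher, with a log2 fold change of 1.15 ± 0.20 (SE), an adjusted p of 8.6e-04 by limma and 3.15 CPM in 1-week libraries, against 0.895 CPM in no-delay libraries. Tags from the 2 could be split between the rows, so the level of Psme2 is uncertain to that extent.

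Psme4, a nuclear activator known for its part in sperm development, had 35.0, 27.6, 30.4 and 37.5 CPM in 1-week libraries, against 37.3, 32.6, 32.7 and 36.4 CPM in no-delay libraries. The groups overlapped, and the log2 fold change of -0.09 ± 0.10 (SE) was not called, with an interval from -0.31 to 0.12 and an adjusted p of 0.491 by limma. Psmf1, known in vitro as an inhibitor of the core particle, had 36.5, 36.1, 38.2 and 35.8 CPM in 1-week libraries, against 33.5, 31.6, 35.4 and 32.4 CPM in no-delay libraries. Every 1-week library was above every no-delay one, but the log2 fold change of 0.14 ± 0.07 (SE) was not called (adjusted p of 0.145 by limma).

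**Figure D3:**
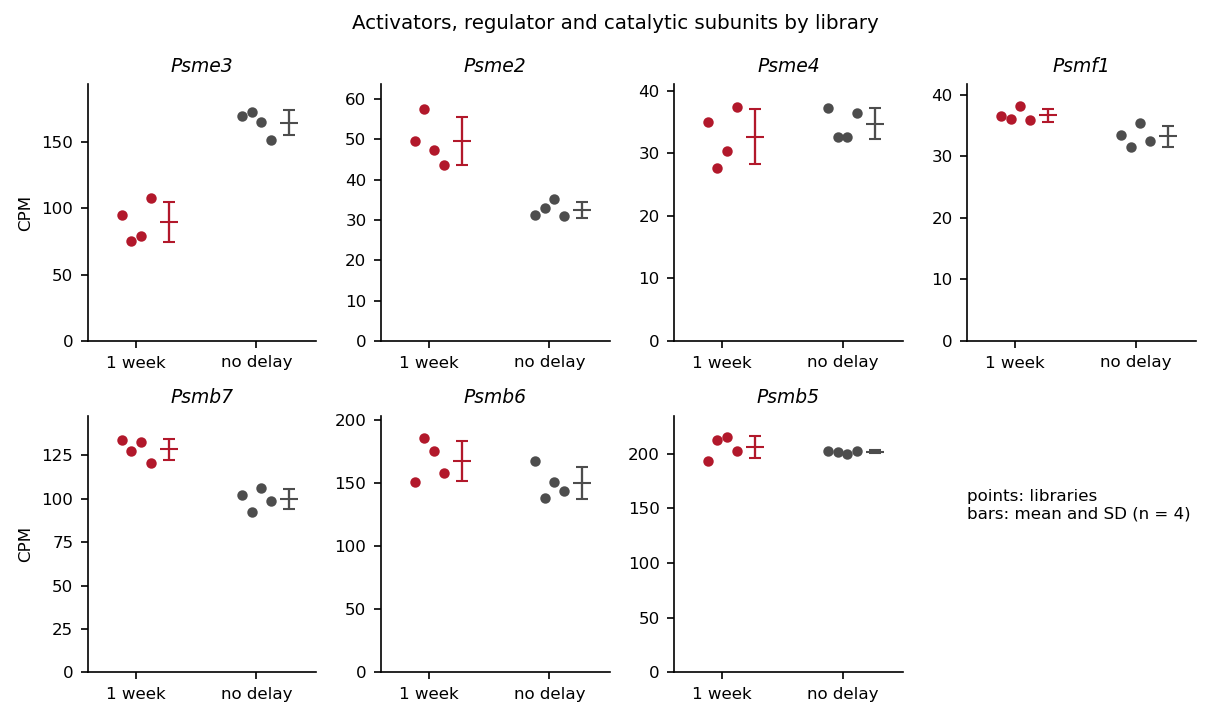
CPM of the 4 activator and regulator genes (upper row) and the 3 catalytic subunits (lower row) in each library, with 1-week libraries in red left of no-delay libraries in grey, and bars for mean and SD (n = 4). The groups do not overlap for Psme3 (lower after 1 week), Psme2, Psmf1 and Psmb7, and overlap for Psme4, Psmb6 and Psmb5.

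The rows that do not encode part of the somatic particle were low. Psma8 had 0.48, 1.26, 0.43 and 1.06 CPM in 1-week libraries, against 0.61, 0.18, 0.50 and 0.52 CPM in no-delay libraries. It was below the filter on low values, and without that filter it was not called (log2 fold change of 0.30, adjusted p of 0.201 by limma). Psmc3ip had 5.31, 4.73, 4.50 and 5.86 CPM in 1-week libraries, against 2.66, 4.57, 4.16 and 4.06 CPM in no-delay libraries. The groups overlapped for both, and the log2 fold change of Psmc3ip, 0.34 ± 0.15 (SE), was not called (adjusted p of 0.103 by limma).

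Each immunoproteasome subunit was then set against the constitutive subunit whose place it takes, within each library. The ratio of Psmb8 to Psmb5 was 20.9%, 19.4%, 17.4% and 15.8% in 1-week libraries, against 2.27%, 2.53%, 2.73% and 3.44% in no-delay libraries. Its mean of 18.4% ± 2.24 after 1 week was 6.69 times the no-delay mean of 2.74% ± 0.501 (SD, n = 4 each). The ratio of Psmb9 to Psmb6 was 6.49%, 4.58%, 5.29% and 4.53% in 1-week libraries, against 0.793%, 0.659%, 0.919% and 0.579% in no-delay libraries. That is 5.22% ± 0.913 against 0.737% ± 0.150 (SD, n = 4 each), or 7.08-fold. For both pairs all 1-week libraries were above all no-delay ones.

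Each of these gave an exact 2-sided permutation p of 0.0286, the smallest that 70 arrangements can give, and 0.0429 after adjustment over 3 pairs. Psmb8 and Psmb9 had log2 fold changes of 2.57 and 2.20, against 0.03 and 0.16 for Psmb5 and Psmb6. These p-values thus mostly reflect Psmb8 and Psmb9 and say little about the constitutive subunits. On the scale of log2(CPM + 1) the differences were 2.55 for Psmb8 to Psmb5 and 2.04 for Psmb9 to Psmb6, and with a pseudocount of 5 the second was 1.01. The ratio of Psmb10 to Psmb7 was 32.8%, 34.0%, 31.6% and 29.0% in 1-week libraries, against 34.3%, 28.0%, 28.6% and 32.1% in no-delay libraries. The groups overlapped, with means of 31.8% ± 2.15 and 30.8% ± 2.97 (SD, n = 4 each) and an exact permutation p of 0.629. Psmb10 and Psmb7 were both called higher, so their ratio was close in the 2 groups while each mean level was not. For the level of Psmb10 the groups overlapped, with 34.94 CPM in the 1-week library D and 35.04 CPM in the no-delay library A. Microglia and macrophage marker sums were higher in the same libraries as the first 2 ratios, and their part in these was not tested.

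**Figure D4:**
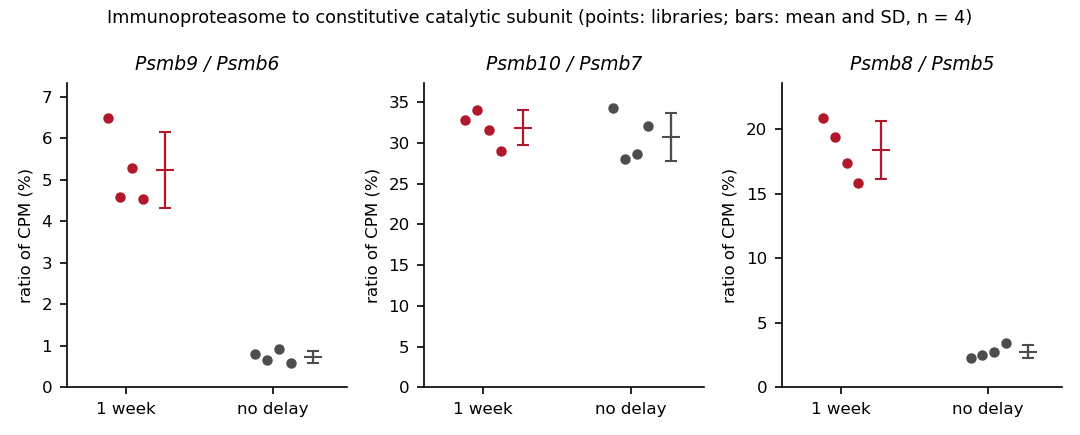
Ratio of the CPM of each immunoproteasome catalytic subunit to that of the constitutive subunit it replaces, in percent, by library, with 1-week libraries in red left of no-delay libraries in grey and bars for mean and SD (n = 4). The ratios with Psmb6 and Psmb5 are separated by group (5.22% against 0.737% and 18.4% against 2.74%), and the ratio with Psmb7 is not (31.8% against 30.8%).

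Genes that work with the proteasome were read from the same fit by lists, to be set against the 23.4% of all genes called higher, 13.4% called lower and 36.8% called either way. All 4 immunoproteasome genes were called higher, with a median log2 fold change of 1.45, although the groups overlapped for Psmb10. Psmb8 averaged 37.8 CPM in 1-week libraries, against 5.54 CPM in no-delay libraries, and Psmb9 averaged 8.69 CPM, against 1.11 CPM. Psme1, the partner of Psme2, averaged 75.1 ± 6.63 CPM in 1-week libraries, against 45.8 ± 2.26 CPM in no-delay libraries (SD, n = 4 each), with a log2 fold change of 0.70 and an adjusted p of 1.85e-05 by limma. Both parts of the cytosolic activator were thus higher while the nuclear Psme3 was lower.

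Of 5 factors that assemble the core particle 1 was called. Pomp, which helps the beta ring to mature, averaged 179 ± 21.0 CPM in 1-week libraries, against 149 ± 13.7 CPM in no-delay libraries (SD, n = 4 each), with a log2 fold change of 0.26 and an adjusted p of 0.0407 by limma. The call was lost under 12 of 20 alternatives, including leaving out any of the 6 libraries no-delay B, C and D and 1-week A, B and C (adjusted p of 0.056 to 0.123). The median over the list was 0.17.

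Of 12 proteins listed as associated with the proteasome, 0 were higher, 4 were lower and 8 were not called. The median log2 fold change was -0.09. The 33.3% called is close to the 36.8% of all genes called either way. Adrm1 and Shfm1, both not called, are cap subunits whose names do not match the rule, so the cap sets above leave them out. Of the 4 lower genes, 3 are shuttle factors that carry ubiquitylated proteins. Rad23b averaged 241 ± 30.4 CPM in 1-week libraries, against 352 ± 14.4 CPM in no-delay libraries (SD, n = 4 each), with a log2 fold change of -0.55 and an adjusted p of 2.88e-04 by limma. Ubqln1 averaged 194 ± 21.9 CPM, against 272 ± 12.9 CPM, with a log2 fold change of -0.49 (adjusted p of 4.03e-04 by limma). Ubqln4 averaged 48.8 ± 7.26 CPM, against 66.0 ± 5.85 CPM, with -0.44 (0.00621). The related Ubqln2 was not called. Neuron marker sums were lower in the same 1-week libraries, and their part in this was not tested.

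Among the 4 ubiquitin genes and 2 enzymes that activate ubiquitin, 1 was called. Uba1, the main activating enzyme, averaged 193 ± 15.4 CPM in 1-week libraries, against 157 ± 12.3 CPM in no-delay libraries (SD, n = 4 each), with a log2 fold change of 0.30 and an adjusted p of 0.00887 by limma. Of 6 genes for Vcp, the ATPase that extracts ubiquitylated proteins from membranes and complexes, and its cofactors, 2 were higher and 4 were not called (33.3% called, against 36.8% of all genes). Ufd1l averaged 86.0 ± 8.46 CPM in 1-week libraries, against 68.2 ± 10.4 CPM in no-delay libraries (log2 fold change of 0.34, adjusted p of 0.0272 by limma). Leaving out no-delay B or D, or 1-week A, B or C, moved that p to 0.0564 to 0.0806. Faf2 averaged 77.8 ± 2.16 CPM, against 67.0 ± 2.93 CPM (0.21, 0.0157), and was not called with TMM scaling (0.0562) or without the 1-week library C (0.0502). Vcp was not called.

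The transcription factors known to drive proteasome genes moved in opposite directions. Nfe2l2, which acts in oxidative stress, averaged 41.8 ± 5.002 CPM in 1-week libraries, against 13.9 ± 1.46 CPM in no-delay libraries (SD, n = 4 each). Its log2 fold change was 1.52, with an adjusted p of 4.66e-07 by limma. Nfe2l1, which raises proteasome genes when proteasome activity is blocked, averaged 192 ± 20.1 CPM, against 271 ± 21.8 CPM, with -0.50 (adjusted p of 5.88e-04 by limma). Mafg, a small Maf partner of both, averaged 45.7 ± 3.70 CPM, against 56.0 ± 6.31 CPM, with -0.28 (0.025), and was not called without no-delay B or 1-week A, B or C (0.0519 to 0.0763). Of the 6 tested genes of this list 1 was higher, 3 were lower and 2 were not called, and the 7th, Maff, was below the filter on low values. Without that filter Maff was called higher (1.00 CPM in 1-week libraries, against 0.378 CPM in no-delay libraries, log2 fold change of 0.53, adjusted p of 0.0111 by limma). The 5 genes with an antioxidant response element core (Psmb5, Psmb6, Psmc6, Psmd12 and Psmd9) were among the 31 of 38 not called. The promoter of Psmb7 was not searched, and a link of these factors to the proteasome genes was not tested.

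**Figure D5:**
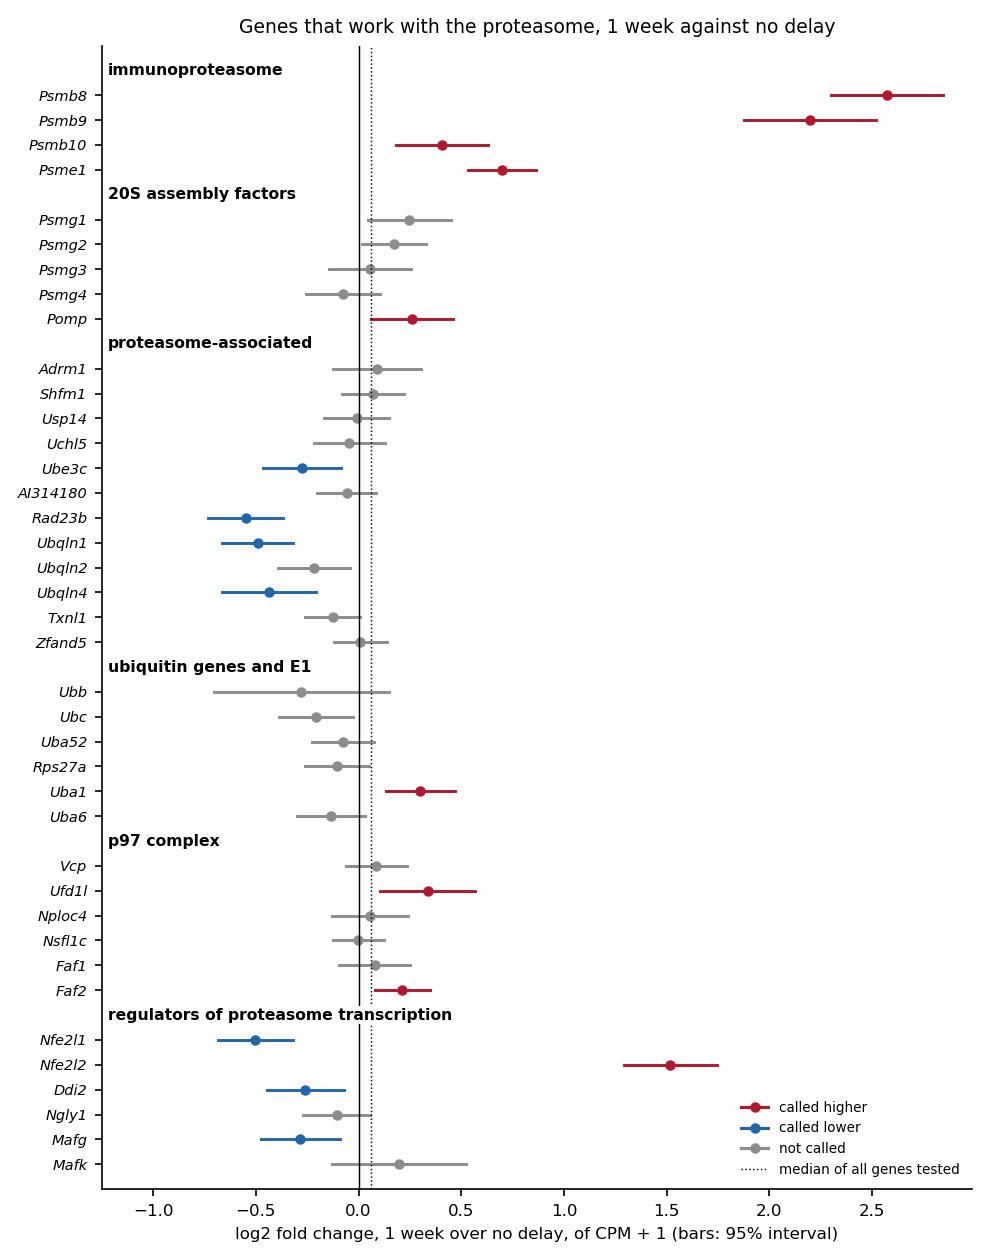
Log2 fold change of CPM + 1, 1 week over no delay, with 95% intervals from limma, for the tested genes of 6 lists of proteins that work with the proteasome. The immunoproteasome genes and Nfe2l2 lie to the right, from 0.41 to 2.57, while Rad23b, Ubqln1 and Nfe2l1 lie near -0.5, and the dotted line marks the median of all genes tested.

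The core particle and cap genes varied between libraries of one group about as much as all genes with a mean of 50 CPM or more. Over the 30 tested genes the coefficient of variation had a median of 6.13% in 1-week libraries and 6.02% in no-delay libraries, against 6.96% and 7.05% over the 4710 genes with a mean of 50 CPM or more. Only Psma5 exceeded 15%, at 25.3% and 33.3%. Within each group one library tended to be lowest. The 1-week library D was lowest of its group for 18 of the 30 genes, against 31.5% of all genes tested. The no-delay library D was lowest for 14 of the 30, against 36.2% of all genes. These libraries also had the lowest levels in their groups of Mbp, a myelin gene, and of Snap25, a neuron marker. Mbp was at 1099 CPM in the 1-week one and 656 CPM in the no-delay one, and Snap25 at 2665 and 3015 CPM. Both libraries carry the same 6-base tag, and the part of the tag or of tissue make-up in this was not tested. The number of calls among the 38 genes depended on single libraries of either group. It was 8 higher and 2 lower without 1-week D, and 3 higher and 1 lower without no-delay D or without 1-week A, B or C. It was 7, 4 and 5 higher, with 1 lower each time, without no-delay A, B and C. Calls over all genes moved as well. Without 1-week D, 23.3% of all genes were called higher and 14.6% lower. Without no-delay D these were 20.4% and 12.3%, and without 1-week A, B or C 19.3% to 21.5% and 9.71% to 11.6%. Without no-delay A, B and C, 23.4%, 20.4% and 21.4% were called higher and 11.9%, 10.8% and 11.1% lower.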

How the data were processed

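The deposited table holds 1 CPM value per gene symbol and library, and the authors scaled each library to a common total. BWA 0.5.9 and build mm9 were used per the submitters' processing notes. How tags were assigned to genes, and whether strand was used, is not given in the sources used here. Columns show a group and a tag but no replicate number, so each was assigned to its group (4 and 4). There were 0 columns of other samples. The labels' protocols give 4 brains per group without tying each library to its own animal, so p-values measure the spread between these samples, which may be technical.

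The test took genes at 1 CPM or above in 4 or more of the libraries (14718, with 2926 not tested). They were tested with limma 3.58.1 (R 4.3.3) and a variance trend on log2(CPM + 1), 1 week minus no delay. This scale understates the change of low genes. P-values were adjusted over all genes by the Benjamini-Hochberg method. The fits were tested on simulated data where few genes changed, in either direction, so that test does not bear on the choice of scaling. Reads were recovered from the steps of the CPM values (99.964% to 100% whole within 0.1 reads per library) and tested with edgeR 4.0.16 (5492 genes called) and DESeq2 1.42.0 (5561 called), against 5410 by limma.

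Values in every library are given for the catalytic subunits, the activators and Psmf1, and in each role for up to 3 called genes with the largest change or for the gene with the highest mean. Psma5, Psmd14 and Psmc2 were named with all values after these had been seen. Of each list, up to 3 called genes were named. The genes, roles and lists were chosen with earlier results of these data known, so no test over a list was made. List symbols follow the table (Shfm1 for Sem1, AI314180 for Ecpas and Ufd1l for Ufd1), Map2 was not analysed here, and 1 gene of the lists is not reported here.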

Additional observations from a re-analysis of the deposited data

Results flagged for a closer look

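In each group of 4 libraries and for each of the 40 genes (80 groups), the lowest or highest library was compared with the rest by Dixon's criterion, which chance alone meets in about 1 in 20 groups. It was met in 4 of 80, each time by library D of a group, which lay below the others. Psma1 was at 128.26 CPM in the 1-week library D, and the other 1-week libraries were at 149.23 to 151.41 CPM. Psmd10 was at 22.8 CPM in the 1-week library D, with the others at 31.04 to 31.93 CPM. Psmd10 was also low in the no-delay library D, at 19.38 CPM, with the others at 27.43 to 28.48 CPM. Psmc6 was at 98.46 CPM in the no-delay library D, with the others at 109.1 to 110.85 CPM.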

How the results depend on the processing

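Of the 38 genes 6 were called higher and 1 lower. The number called higher was 2 with median-of-ratios scaling and 3 with edgeR or DESeq2 on recovered reads, where 19.5%, 19.9% and 19% of all genes were called higher. The number called lower was 3 with DESeq2, where 18.8% of all genes were called lower. It was 2 with the 6-base tag as a block and 0 for core particle and cap genes alone, both of which were chosen after seeing the data. Leaving out 1 library gave 3 to 8 higher and 1 to 2 lower, and a median log2 fold change from 0.06 to 0.14. In those fits 19.3% to 23.4% of all genes were called higher and 9.71% to 14.6% lower. Psmb7, Psme2 and Psme3 kept their calls under all 20 alternatives. Psma1 lost its call under 7, Psma3 under 2, Psmb2 and Psmd13 under 11 each. Of the 31 genes not called, 24 were not called under any alternative. Other pseudocounts and filters left 6 higher and 1 lower. Of 13 named genes from the lists 9 kept their calls under all 20. Leaving out 1 library gave a difference between groups of 2.47 to 2.64 in the log2 ratio of Psmb8 to Psmb5, of 1.94 to 2.10 in the log2 ratio of Psmb9 to Psmb6 and of 0.0029 to 0.096 in the log2 ratio of Psmb10 to Psmb7. No paired analysis was possible because the columns carry no replicate number. Over all genes tested, the deviations of libraries with the same 6-base tag from their group means had correlations of -0.019, -0.034 and 0.037 for A, B and C and of 0.18 for D. The highest correlation of each 1-week library with a no-delay library of another tag was 0.042, 0.091, 0.074 and 0.0018 for A to D. Psma8 and Psmc2, below the filter of 1 CPM, were not called without it either (adjusted p of 0.201 and 0.477 by limma).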

Other observations

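Among the 33 genes with a reference promoter, 5 have another gene that starts within 500 bases upstream on the opposite strand. Each such neighbour has its own row, but if strand was not used some tags could be counted for the wrong gene of a pair. Psma7 starts 19 bases from Ss18l1, which averaged 42.3 CPM in 1-week libraries, against 52.6 CPM in no-delay libraries, with a log2 fold change of -0.31 (adjusted p of 0.019 by limma), while that of Psma7 was 0.16 and not called. Psmd13 starts 85 bases from Sirt3, which averaged 70.4 CPM, against 62.3 CPM, with a log2 fold change of 0.18 (adjusted p of 0.129 by limma) beside 0.20 for Psmd13. Psma2 starts 205 bases from Mrpl32, which averaged 63.6 CPM, against 56.1 CPM (0.18, adjusted p of 0.0577 by limma), beside 0.01 for Psma2. The other pairs were Psmc5 with Ftsj3, 101 bases apart, and Psmd10 with Atg4a, 196 bases apart.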
